A study of Mus musculus with 13 samples.

Results

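The 10 collagen genes described here were chosen by name from the 54532 genes of a table of FPKM. They are Col1a1, Col1a2, Col3a1, Col5a1, Col5a2, Col6a1, Col6a2, Col6a3, Col14a1 and Col4a1. FPKM are the fragments of a gene scaled for its length and for a total set per library. All 10 matched 1 row each. They were named with the FPKM of these libraries already known, where the collagens lay higher on the high-protein diet, so their levels and fold changes are given as a description. The test across all genes, where it is named, is read for the table as a whole and supports nothing about these 10. Individual mice fasted for 12 h gave the total RNA, which came from the inguinal white fat pad under the skin of the groin. SF_HPD was made up of 5 mice whose sleep was fragmented and which were fed a high-protein diet. In this diet 50% of the energy came from protein, 12% from fat and 38% from carbohydrate. The SF_ConD group held 5 mice with fragmented sleep on chow, and the SC_ConD group 3 mice with normal sleep on chow. The study addressed damage from chronic sleep fragmentation and its relief by the diet. The sources used here do not give the strain, sex and age of the mice or the make-up of the chow, and no group used here combined normal sleep with the high-protein diet.

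Collagens are triple-helical proteins of the extracellular matrix. In fat, types I, III and V form the fibrils of the interstitial stroma, type VI forms beaded filaments around adipocytes and is an abundant collagen of the tissue, type XIV decorates fibril surfaces, and type IV forms the basement membrane that wraps each adipocyte and vessel. Fibroblasts and adipocyte progenitors are the main producers of the fibrillar collagens, while endothelial cells, pericytes and adipocytes also make type IV.

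Recovered reads on genes ran from 14815592 to 18303302 per library. The total by which the FPKM were scaled was 0.479 (SF_HPD 2) to 1.23 (SF_HPD 1) times these reads. FPKM and shares of recovered reads can therefore order the libraries differently. None of the 14 adipocyte markers was at 0 in any library. Their mean log2(FPKM + 1) was 3.57 in SF_HPD 2, while the other 12 libraries all reached 7.25 or more. Markers of B cells and lymph nodes were high in SF_HPD 4 and 5 and SF_ConD 1, 4 and 5, with means of 4.52 to 5.58 against at most 1.39 elsewhere. The albumin gene Alb was at 4223 and 1614 FPKM in SC_ConD 2 and 3 and at most at 88.3 FPKM in the other 11 libraries. The summed FPKM of the skeletal muscle markers was 21054 in SF_HPD 4. A set of 4 libraries leaned toward long genes: in SF_HPD 1 and 4, SF_ConD 3 and SC_ConD 1 a gene's length and its deviation from the mean over libraries were related across genes with a Spearman rho of 0.48 to 0.56, against at most 0.0319 in the other 9. The collagen genes are long in this table, at 4380 to 12426 bases, and each was longer than 59.8% or more of the 14421 genes tested. Their reads ran from 28 for Col6a3 in SC_ConD 3, with an exact Poisson interval (95%) of 18.6 to 40.5 for counting error only, to 26031 for Col4a1 in SF_HPD 1. Of the 130 values, 7 rested on fewer than 100 reads.

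The collagen genes were highest together in SF_HPD 1, SF_HPD 4 and SC_ConD 1, and lowest together in SF_ConD 1 and SF_ConD 4. Their summed FPKM was 612, 88.8, 232, 364 and 78.3 in SF_HPD 1 to 5, against 37.4, 104, 75.8, 51.8 and 97.9 in SF_ConD 1 to 5, and 341, 100.5 and 81.8 in SC_ConD 1 to 3. SF_HPD therefore spanned both high and low libraries, and SC_ConD held 1 high and 2 low ones. As a share of recovered reads the 10 genes took 0.623% in SF_HPD 1 and 0.0274% in SF_ConD 1. By this share SF_HPD 2 (0.0405%) and SF_HPD 5 (0.0468%) lay below each of SF_ConD 2 to 5 (0.0482% to 0.0828%). By summed FPKM both lay above SF_ConD 3 and 4. Of the 10 genes, 7 had their highest FPKM in SF_HPD 1 and 3 in SF_HPD 4, while 6 had their lowest FPKM in SF_ConD 1. In tissue RNA, fewer cells of a type and less RNA per cell cannot be told apart.

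**Figure D1:**
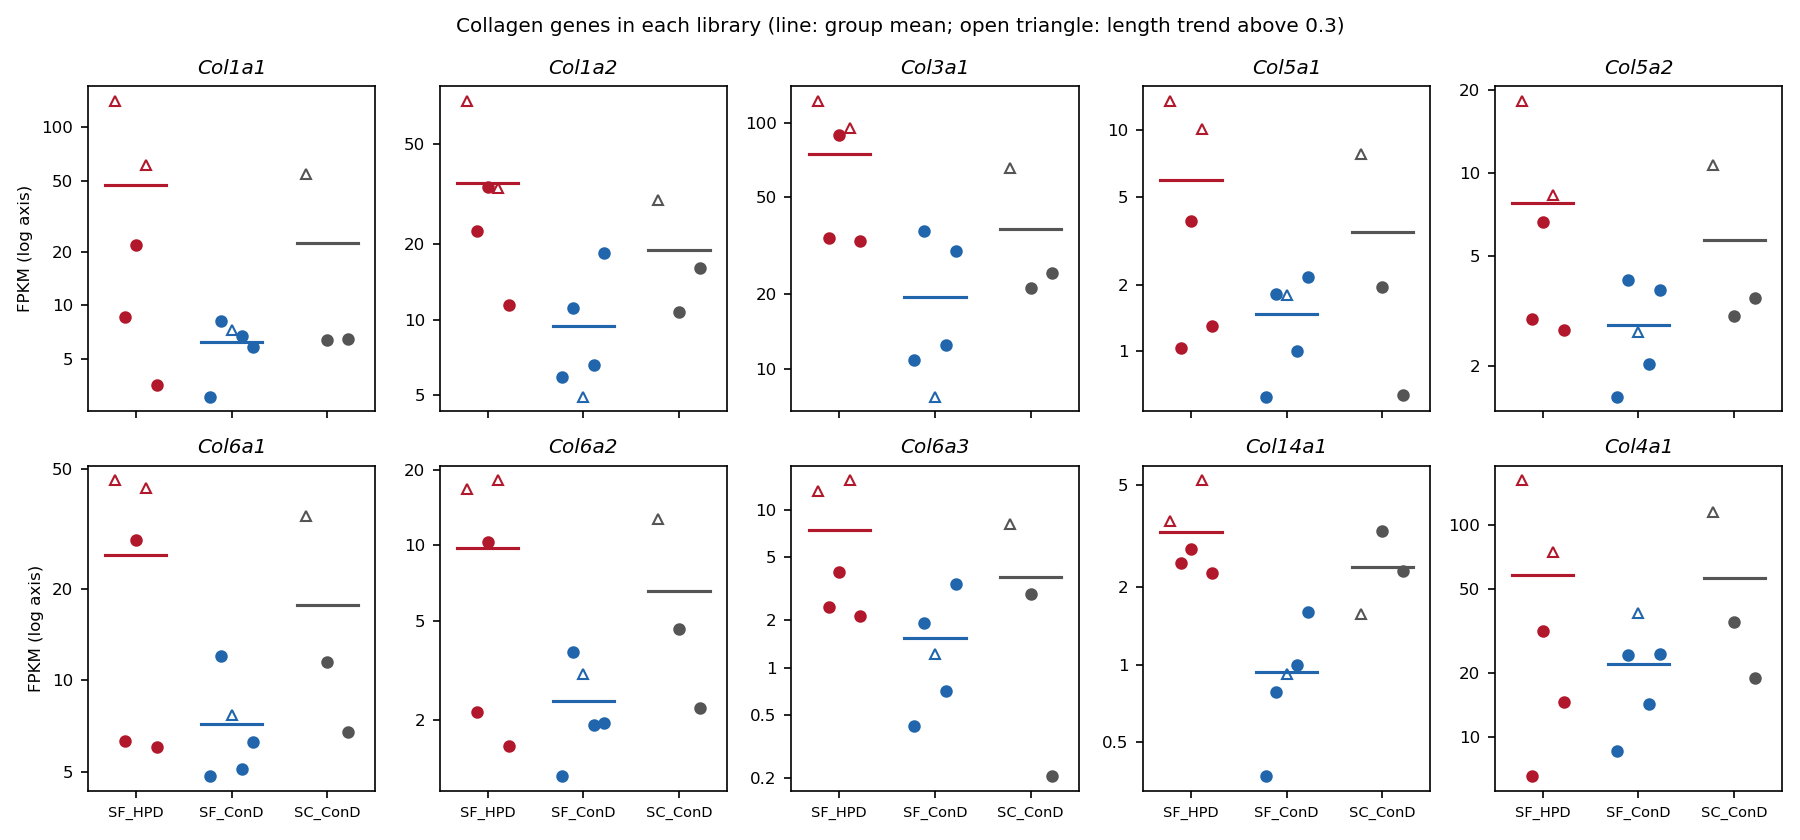
FPKM (log axis) of each collagen gene in SF_HPD (n = 5), SF_ConD (n = 5) and SC_ConD (n = 3), 1 point per library, with a line at the group mean and an open triangle for the 4 libraries whose length trend was above 0.3. SC_ConD 1 is the highest SC_ConD library for each gene but Col14a1, the only gene whose SF_HPD and SF_ConD points do not overlap, and for Col4a1 SF_ConD 3 (38.5 FPKM) lies above 3 of the 5 SF_HPD libraries.

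Type I collagen, the main fibre of tendon, skin and the interlobular septa of fat, is built of the chains that Col1a1 and Col1a2 encode. Col1a1 (ENSMUSG00000001506, chromosome 11, 94936224 to 94953042, plus strand, GRCm38) was at 141, 8.64, 21.7, 61.0 and 3.57 FPKM in SF_HPD 1 to 5. It was at 3.07, 8.16, 7.25, 6.75 and 5.81 FPKM in SF_ConD 1 to 5 and at 54.4, 6.40 and 6.43 FPKM in SC_ConD 1 to 3. The diet group held both a library far above every chow library and, in SF_HPD 5, one below 4 of the 5 SF_ConD libraries, so the groups overlapped. Group means were 47.1 ± 56.9 FPKM in SF_HPD, 6.21 ± 1.95 FPKM in SF_ConD and 22.4 ± 27.7 FPKM in SC_ConD (SD, n = 5, 5 and 3). Col1a2 (ENSMUSG00000029661, chromosome 6, 4504814 to 4541544, plus strand) was at 74.4, 22.4, 33.7, 33.4 and 11.4 FPKM in SF_HPD 1 to 5. It was at 5.91, 11.2, 4.94, 6.58 and 18.4 FPKM in SF_ConD 1 to 5 and at 29.9, 10.7 and 16.1 FPKM in SC_ConD 1 to 3. For Col1a2 SF_HPD 5 alone of the diet libraries lay inside the SF_ConD range of FPKM. By share of recovered reads SF_HPD 2 (2414 of 18061485) also lay below SF_ConD 5 (2627 of 15730228).

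Type III collagen, a homotrimer that co-assembles with type I in soft tissues, is encoded by Col3a1 (ENSMUSG00000026043, chromosome 1, 45311538 to 45349706, plus strand). Col3a1 was at 123, 33.8, 88.8, 94.8 and 32.9 FPKM in SF_HPD 1 to 5, at 10.9, 36.4, 7.69, 12.4 and 29.9 FPKM in SF_ConD 1 to 5, and at 65.3, 21.2 and 24.5 FPKM in SC_ConD 1 to 3. Its means were 74.6 ± 39.8 FPKM in SF_HPD, 19.5 ± 12.8 FPKM in SF_ConD and 37.0 ± 24.6 FPKM in SC_ConD (SD, n = 5, 5 and 3). By FPKM every SF_HPD library stood above 4 of the 5 SF_ConD libraries, and SF_ConD 2 fell within the SF_HPD range. By share of recovered reads SF_HPD 2 (2876 of 18061485) and SF_HPD 5 (3199 of 15113270) also lay below SF_ConD 5 (3379 of 15730228).

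The 300-base promoter windows of Col1a2 and Col3a1 are shown because these fibrillar genes varied together, from 250 bases before to 50 bases after the start of transcription, on GRCm38.p6 as RefSeq gives it. Capitals mark CCAAT (the box bound by the factor NF-Y) and TATAAA, searched on both strands, where the reverse strand reads ATTGG and TTTATA. Windows are chr6:4505368-4505667 (plus strand) for Col1a2 and chr1:45311288-45311587 (plus strand) for Col3a1.
Col1a2: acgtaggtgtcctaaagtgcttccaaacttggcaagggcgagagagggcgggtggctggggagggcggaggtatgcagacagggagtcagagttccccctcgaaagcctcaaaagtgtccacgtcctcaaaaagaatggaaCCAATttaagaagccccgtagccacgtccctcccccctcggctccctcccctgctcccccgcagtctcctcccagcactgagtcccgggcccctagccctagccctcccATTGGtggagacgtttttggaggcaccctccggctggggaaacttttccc
Col3a1: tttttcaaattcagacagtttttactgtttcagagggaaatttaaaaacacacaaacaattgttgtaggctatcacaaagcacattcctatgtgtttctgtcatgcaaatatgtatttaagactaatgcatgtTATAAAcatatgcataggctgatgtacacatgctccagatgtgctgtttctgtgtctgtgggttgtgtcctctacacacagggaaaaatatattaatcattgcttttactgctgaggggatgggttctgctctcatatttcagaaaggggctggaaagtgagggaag
The Col1a2 window held a CCAAT whose first base lay at position -109 and a reverse match at the RefSeq start site itself (position 0). This window (from 4505368) lies inside the Col1a2 span given above, which begins at 4504814. Its positions therefore count from the RefSeq start and not from the start of that span. The Col3a1 window held no CCAAT and a TATAAA at -117. CCAAT was present in 37.4% and TATAAA in 13.6% of all 32851 windows in the table. Windows were found for 7 of the 10 genes (8 windows), of which those of Col1a2 and Col4a1 held CCAAT and that of Col3a1 held TATAAA.

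Type V collagen sits inside type I fibrils and limits their diameter. Col5a1 (ENSMUSG00000026837, chromosome 2, 27886425 to 28039514, plus strand) was at 13.6, 1.03, 3.89, 10.1 and 1.30 FPKM in SF_HPD 1 to 5, at 0.623 to 2.17 FPKM in SF_ConD and at 7.76, 1.95 and 0.632 FPKM in SC_ConD 1 to 3. Col5a2 (ENSMUSG00000026042, chromosome 1, 45374321 to 45503282, minus strand), the neighbour of Col3a1, was at 18.3, 2.96, 6.63, 8.35 and 2.70 FPKM in SF_HPD 1 to 5, at 1.56 to 4.09 FPKM in SF_ConD and at 10.7, 3.04 and 3.53 FPKM in SC_ConD 1 to 3. In both genes SF_HPD 2 and 5 lay within the SF_ConD range.

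Type VI filaments are assembled from the products of Col6a1, Col6a2 and Col6a3, and the end of the Col6a3 chain is cleaved off as endotrophin, a peptide known from obese fat. Col6a1 (ENSMUSG00000001119, chromosome 10, 76708792 to 76726168, minus strand) was at 45.7, 6.30, 29.1, 43.1 and 6.01 FPKM in SF_HPD 1 to 5. It was at 4.83, 12.0, 7.70, 5.12 and 6.26 FPKM in SF_ConD 1 to 5 and at 35.0, 11.5 and 6.77 FPKM in SC_ConD 1 to 3. SF_HPD 1, 3 and 4 were above each SF_ConD library, and SF_HPD 2 and 5 were the fifth and the third lowest of all 13. Col6a2 (ENSMUSG00000020241, chromosome 10, 76595762 to 76623630, minus strand) split in the same way, with 1.58 to 18.1 FPKM in SF_HPD, 1.20 to 3.76 FPKM in SF_ConD and 2.25 to 12.7 FPKM in SC_ConD. Col6a3 (ENSMUSG00000048126, chromosome 1, 90765923 to 90843971, minus strand) was at 13.1, 2.43, 4.03, 15.3 and 2.12 FPKM in SF_HPD 1 to 5. It was at 0.425, 1.93, 1.22, 0.715 and 3.39 FPKM in SF_ConD 1 to 5 and at 8.08, 2.93 and 0.206 FPKM in SC_ConD 1 to 3. Only SF_ConD 5 kept the Col6a3 FPKM of both sleep-fragmented groups from separating. By share of recovered reads SF_HPD 2 (252 of 18061485) also lay below SF_ConD 2 (345 of 16198217) and SF_ConD 3 (280 of 16320159).

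Col14a1 (ENSMUSG00000022371, chromosome 15, 55307750 to 55520803, plus strand) encodes the chain of type XIV collagen, which binds to the surface of fibrils and is a marker of some fibroblast populations. It was at 3.61, 2.49, 2.82, 5.21 and 2.27 FPKM in SF_HPD 1 to 5, at 0.367, 0.783, 0.917, 0.994 and 1.60 FPKM in SF_ConD 1 to 5, and at 1.57, 3.32 and 2.32 FPKM in SC_ConD 1 to 3. Col14a1 was the 1 collagen gene of the 10 whose SF_HPD and SF_ConD FPKM did not overlap. Of the genes tested, 0.229% had no overlap with SF_HPD higher. By share of recovered reads the gap was very narrow, with 151 of 18061485 in SF_HPD 2 against 129 of 15730228 in SF_ConD 5. Col14a1 also departed from the others in SC_ConD, where SC_ConD 1 was the lowest of its group and not the highest. Its means were 3.28 ± 1.19 FPKM in SF_HPD, 0.932 ± 0.445 FPKM in SF_ConD and 2.40 ± 0.874 FPKM in SC_ConD (SD, n = 5, 5 and 3).

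Type IV collagen is the network-forming collagen of basement membranes, and Col4a1 encodes its chain alpha-1. Col4a1 (ENSMUSG00000031502, chromosome 8, 11198423 to 11312826, minus strand) was at 163, 6.50, 31.6, 75.03 and 14.5 FPKM in SF_HPD 1 to 5. It was at 8.58, 24.3, 38.5, 14.3 and 24.6 FPKM in SF_ConD 1 to 5 and at 115, 34.8 and 19.0 FPKM in SC_ConD 1 to 3. Unlike the interstitial collagens, Col4a1 had its lowest value in a diet library, SF_HPD 2, and its highest SF_ConD value in SF_ConD 3, the library in which Col1a2 and Col3a1 were at their lowest. The ratio of Col4a1 to Col3a1 FPKM was 5.01 in SF_ConD 3 and 0.192 in SF_HPD 2, the extremes of the 13 libraries.

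Col4a1 is transcribed head to head with Col4a2, which encodes the partner chain, and their start sites lie 21 bases apart in the RefSeq annotation. The start of Col4a2 (11312805, plus strand) lies inside Col4a1 (start 11312826, minus strand), so the genes overlap at their starts. Their promoter windows, chr8:11312777-11313076 (minus strand) and chr8:11312555-11312854 (plus strand), share 78 bases and are shown for this arrangement, with CCAAT or its reverse in capitals.
Col4a1: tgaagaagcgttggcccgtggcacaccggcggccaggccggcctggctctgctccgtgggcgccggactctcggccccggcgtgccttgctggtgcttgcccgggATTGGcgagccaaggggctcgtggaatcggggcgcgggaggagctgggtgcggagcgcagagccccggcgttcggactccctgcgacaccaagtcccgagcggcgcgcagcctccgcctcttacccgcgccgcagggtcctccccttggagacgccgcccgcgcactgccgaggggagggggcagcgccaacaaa
Col4a2: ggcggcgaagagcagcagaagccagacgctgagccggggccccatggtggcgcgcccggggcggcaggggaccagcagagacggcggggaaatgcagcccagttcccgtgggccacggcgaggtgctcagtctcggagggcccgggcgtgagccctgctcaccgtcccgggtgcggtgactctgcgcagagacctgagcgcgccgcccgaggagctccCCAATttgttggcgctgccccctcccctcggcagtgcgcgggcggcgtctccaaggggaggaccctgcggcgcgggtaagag
The match lay at -145 from the start of Col4a1 on the reverse strand and at -32 from the start of Col4a2 on the forward strand, so each window held its own. Both windows were rich in G and C (74.0% and 73.7%), against 37.7% in the Col3a1 window. Col4a2 averaged 33.9 ± 39.9 FPKM in SF_HPD, 13.8 ± 10.02 FPKM in SF_ConD and 32.6 ± 41.0 FPKM in SC_ConD (SD, n = 5, 5 and 3).

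Chains that assemble into the same molecule did not all keep a constant ratio over the 13 libraries. Col6a1 to Col6a2 was the steadiest of the 6 same-type or fibrillar pairs computed, at 2.38 to 4.03, although Col6a1 itself varied 9.46-fold. The ratio of Col1a1 to Col1a2 varied 6.04-fold, from 0.313 in SF_HPD 5 to 1.89 in SF_HPD 1. It was 1.89, 1.83, 1.47 and 1.82 in SF_HPD 1, SF_HPD 4, SF_ConD 3 and SC_ConD 1, the 4 libraries that leaned toward long genes, and at most 1.02 in the other 9. Those same 4 libraries also had the highest Col5a1 to Col5a2 ratios (0.743, 1.20, 0.671 and 0.727, against at most 0.642) and the lowest Col4a1 to Col4a2 ratios (1.67, 1.57, 1.28 and 1.45, against at least 1.69). These ratios thus sorted by library and not by group, with Col1a1 to Col1a2 means of 1.01 ± 0.783 in SF_HPD, 0.812 ± 0.451 in SF_ConD and 0.939 ± 0.770 in SC_ConD (SD, n = 5, 5 and 3). By the lengths in the table Col1a2 (12426 bases) is longer than Col1a1 (6563 bases), and Col5a2 (9591 bases) is longer than Col5a1 (8490 bases). In both pairs the shorter gene was thus relatively higher in the 4 libraries that leaned toward long genes. What set these ratios was not tested. Col6a3 to Col6a1 ran from 0.0304 in SC_ConD 3, where it rests on 28 reads of Col6a3, to 0.542 in SF_ConD 5, and its next lowest value was 0.0881 in SF_ConD 1.

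**Figure D2:**
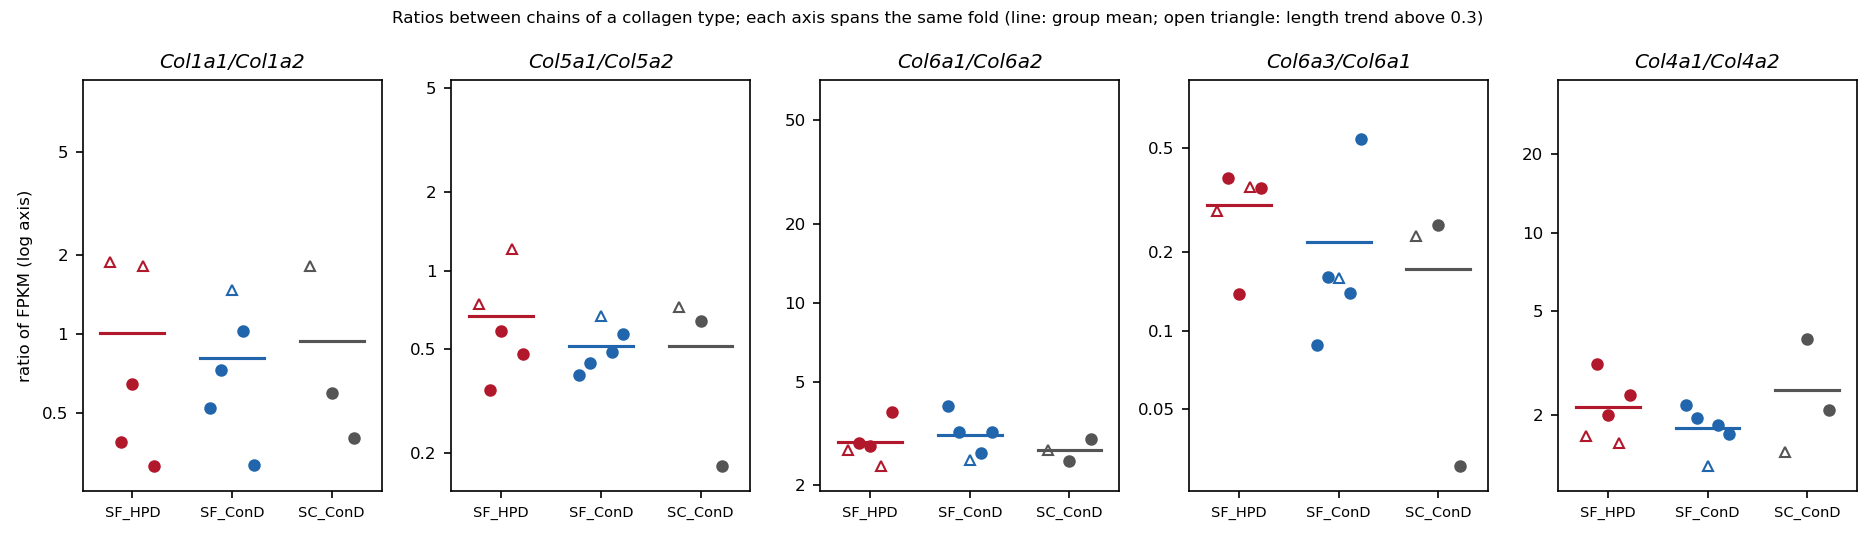
Ratio of FPKM (log axes spanning the same fold) between 5 pairs of chains in each library of SF_HPD, SF_ConD and SC_ConD, with a line at the group mean and open triangles for the 4 libraries with a length trend above 0.3. The triangles lie at the top for Col1a1/Col1a2 and Col5a1/Col5a2 and at the bottom for Col4a1/Col4a2 in each group, and Col6a1/Col6a2 stays between 2.38 and 4.03.

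Under fragmented sleep, the diet was set against chow in SF_HPD against SF_ConD. All 10 collagen genes had a positive log2 fold change of FPKM + 1, where 51.9% of all genes tested did, and nothing is read from this share because the choice of genes used this comparison. The median was 1.32, and that of all 14421 genes 0.0144. The fold changes were 1.92 (SE 0.53) for Col3a1, 1.82 (SE 0.84) for Col1a1 and 1.70 (SE 0.48) for Col1a2. The type VI genes had 1.49 (SE 0.61) for Col6a3, 1.35 (SE 0.60) for Col6a1 and 1.28 (SE 0.59) for Col6a2. The type V chains had 1.10 (SE 0.59) for Col5a1 and 0.97 (SE 0.46) for Col5a2, and Col4a1 had 0.73 (SE 0.78). Col14a1, the gene of lowest FPKM, had 1.14 (SE 0.27), and 1.76 with a pseudocount of 0.1 and 1.78 with limma-voom. The genes could not be put in a firm order: with a pseudocount of 0.1 and with limma-voom Col6a3 came above Col3a1, with 2.04 under both. Limma called 0 of the 14421 genes at an adjusted p under 0.05 (0%), so no collagen gene passed, with 273 genes at an unadjusted p under 0.05 and 0 genes called by limma-voom on recovered reads, with 210. Without the 4 libraries that leaned toward long genes the median was 0.59 and Col4a1 turned to -0.17. The other 9 ran from 0.29 for Col5a1 to 1.19 for Col3a1, with Col1a1 at 0.59. With the length trend as a covariate, all libraries kept, the median was 1.17 and all 10 were positive. The 2 highest SF_HPD libraries are among those 4.

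On chow, fragmented sleep was set against normal sleep in SF_ConD against SC_ConD. All 10 log2 fold changes were negative, where 52.6% of the genes tested were, with a median of -0.95 against -0.0289 over all genes. They ran from -1.08 (SE 0.90) for Col4a1 and -1.06 (SE 0.97) for Col1a1 to -0.53 (SE 0.68) for Col5a1, a span of the size of their errors. Col14a1 had the smallest error, at -0.82 (SE 0.31), and its value was -1.33 with a pseudocount of 0.1 and -1.18 with limma-voom. None of the 10 had groups without overlap, where 1.92% of the genes tested did with SF_ConD lower. Limma called 0 genes (0%), with 828 at an unadjusted p under 0.05, and limma-voom 0, with 727. One library carried much of this difference: without SC_ConD 1 the median was -0.35, Col5a1 was at 0.13 and Col6a3 at 0.10. Without SC_ConD 2 and 3, the libraries with liver transcripts, it was -1.94, the lone SC_ConD library being assumed to vary like the other groups. Without the 4 libraries of long lean it was -0.29, with Col5a1 at 0.0782 and Col6a3 at 0.12 on the other side of 0, and Col14a1 had the largest negative value (-1.005). Without the lymphoid-rich libraries it was -0.52.

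SF_HPD against SC_ConD set both factors together against normal sleep on chow. Of the 10 log2 fold changes 9 were positive, where 51.8% of the genes tested were, and Col4a1 was at -0.35 (SE 0.90). The median was 0.48, against 0.0159 over all genes. None of the 10 had groups without overlap, where 0.791% of the genes tested did with SF_HPD higher. The highest values were 0.98 (SE 0.62) for Col3a1 and 0.91 (SE 0.70) for Col6a3. Limma called 0 genes (0%), with 531 at an unadjusted p under 0.05, and limma-voom 0, with 512. The median turned to -0.72 without SC_ConD 2 and 3. It was 1.06 without SC_ConD 1, 0.11 without SC_ConD 3, 0.16 without SF_HPD 1, 0.24 without SF_HPD 4, 0.79 without SF_HPD 2 and 0.82 without SF_HPD 5, and 0.30 without the 4 libraries of long lean. The 3 comparisons share libraries in pairs, so their directions are not independent of each other.

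**Figure D3:**
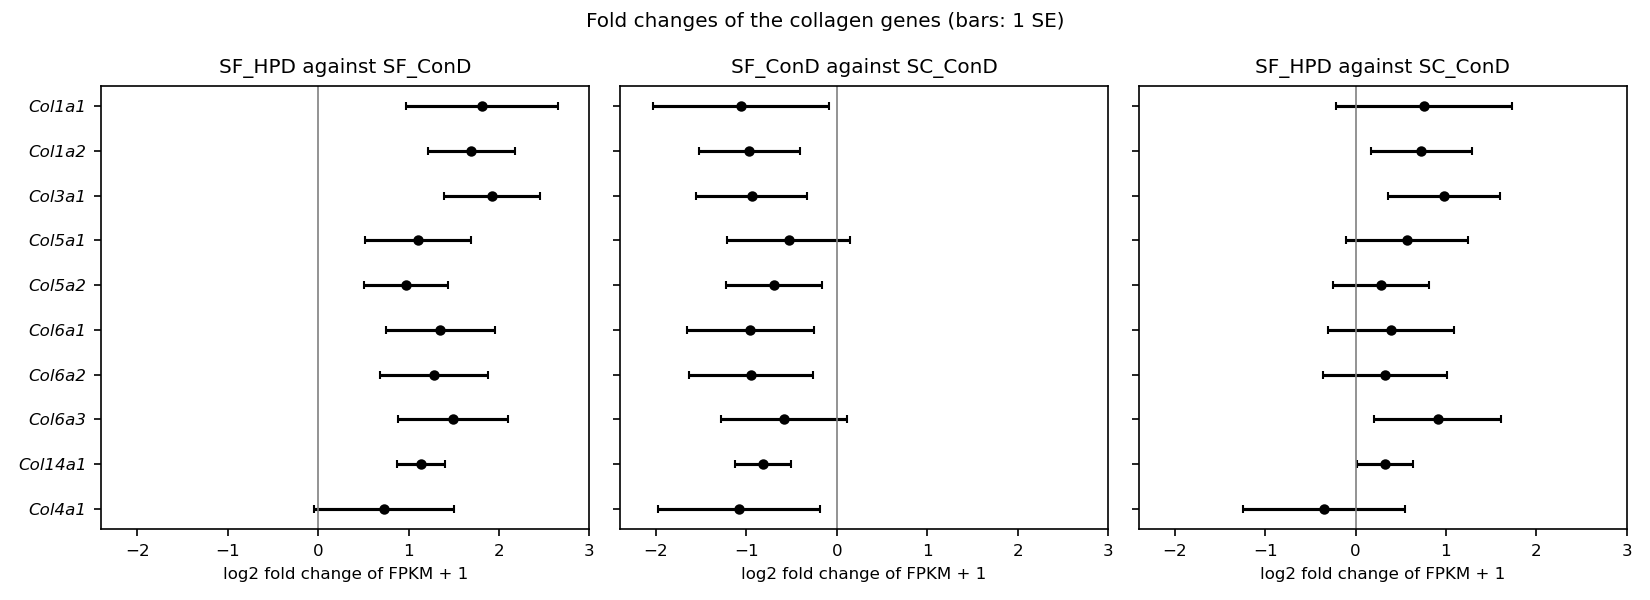
Log2 fold change of FPKM + 1 of each collagen gene (points, with bars of 1 SE) in SF_HPD against SF_ConD, SF_ConD against SC_ConD and SF_HPD against SC_ConD. All points are above 0 in the first comparison (median 1.32), below 0 in the second (median -0.95), and on both sides of 0 in the third, from -0.35 for Col4a1 to 0.98 for Col3a1 (median 0.48).

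Markers of collagen-producing cells were set beside these values. The stromal progenitor and fibroblast list (16 genes, all tested) had 12 positive and 4 negative log2 fold changes in SF_HPD against SF_ConD, with a median of 0.48, and 2 positive and 14 negative ones in SF_ConD against SC_ConD, with a median of -0.43. Its summed FPKM was 932 to 4529 in SF_HPD, 1216 to 3041 in SF_ConD and 2511 to 3724 in SC_ConD, and its only zeros were Fap and Prrx1 in SF_HPD 2. SC_ConD 1 had the lowest stromal sum of its group and the highest collagen sum. With the mean of this list as a covariate the median collagen fold change was 0.98 in SF_HPD against SF_ConD and -0.57 in SF_ConD against SC_ConD. Smooth muscle and pericyte markers had positive fold changes in 10 of 10 in SF_HPD against SF_ConD, and their summed FPKM was 134 to 745 in SF_HPD, 101 to 230 in SF_ConD and 129 to 295 in SC_ConD, with no gene at 0. Endothelial markers, of which 3 of 12 were positive in SF_HPD against SF_ConD, summed to 45.0 to 536 FPKM in SF_HPD, 251.1 to 344 FPKM in SF_ConD and 196 to 597 FPKM in SC_ConD. Skeletal muscle markers were positive in 9 of the 9 tested (of 12) in SF_HPD against SF_ConD, with a median of 1.91, and negative in 9 of 9 in SF_ConD against SC_ConD, with a median of -1.93. Their summed FPKM was 27.1 to 21054 in SF_HPD, 5.78 to 121 in SF_ConD and 25.01 to 3553 in SC_ConD, and without SF_HPD 4, the library at 21054, the collagen median in SF_HPD against SF_ConD was 1.03. The medians in SF_HPD against SF_ConD and in SF_ConD against SC_ConD were -1.35 and 2.63 for B cell and lymph node markers, -1.399 and 0.33 for epithelial markers, -0.53 and -0.59 for adipocyte markers, and -1.16 and -3.92 for hepatocyte markers. Macrophage markers had -0.0581 and 0.02. The summed FPKM of the epithelial markers was 4.86 to 7712 in SF_HPD, 390 to 1772 in SF_ConD and 366 to 1344 in SC_ConD. SF_HPD held both extremes of the 13 libraries, the lowest in SF_HPD 4 and the highest in SF_HPD 2, the library low in adipocyte markers. Beyond the stromal covariate and the libraries left out, the part of these markers in the collagen differences was not tested.

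**Figure D4:**
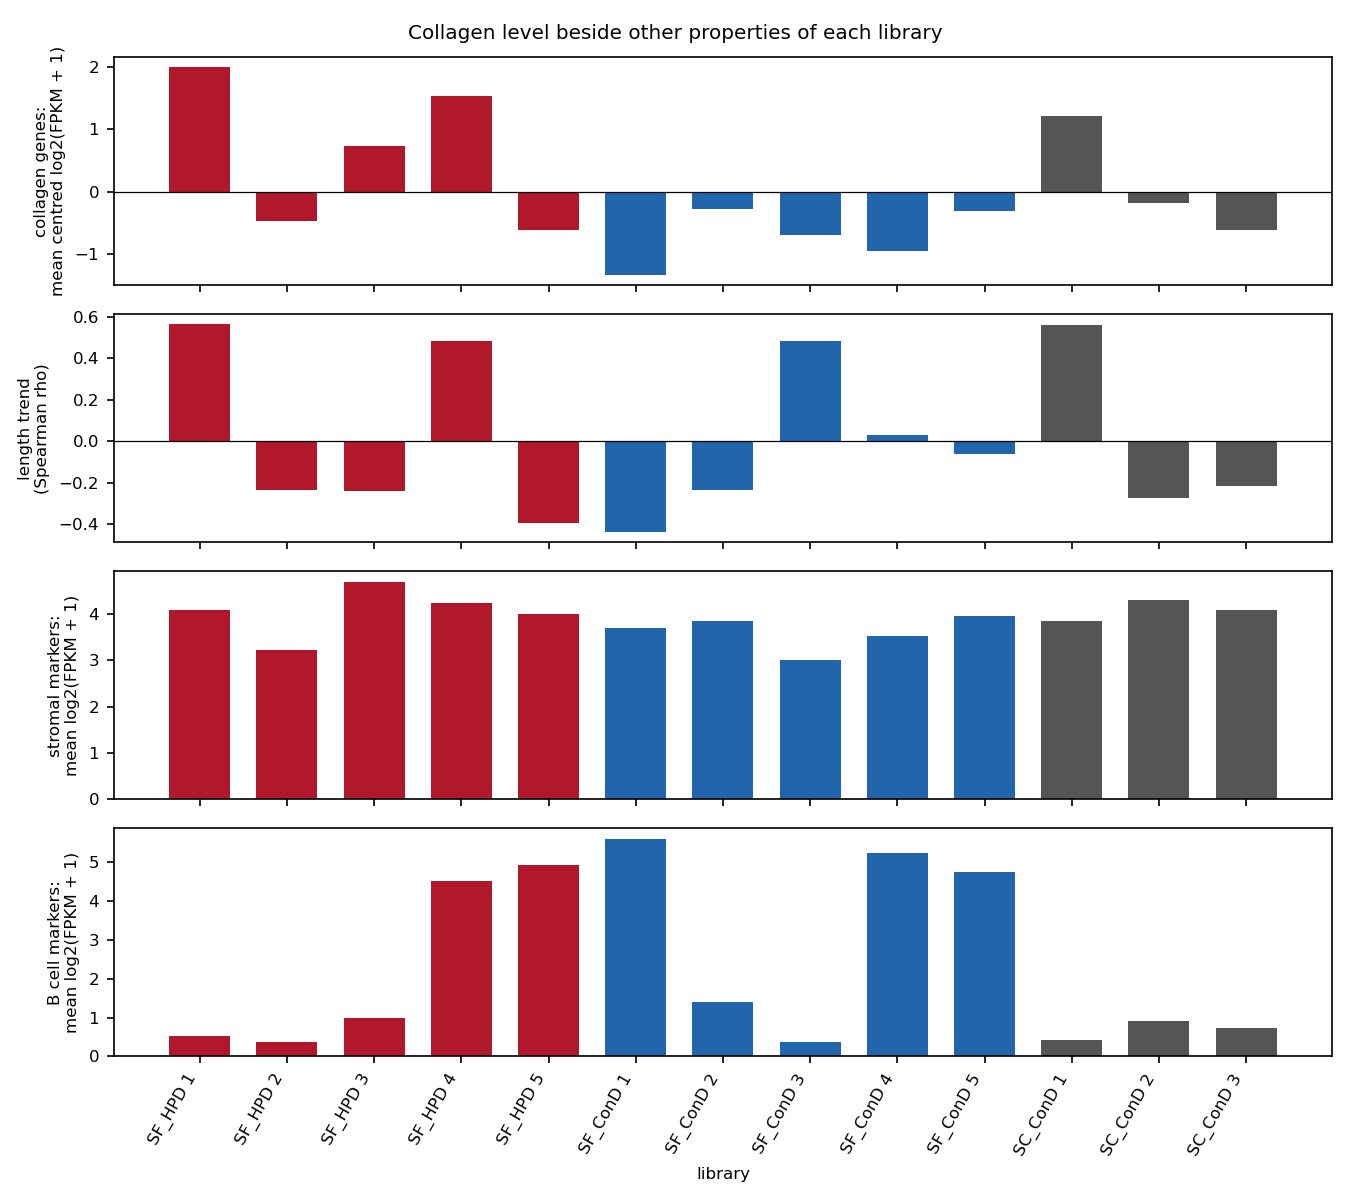
Bar plots over the 13 libraries in the order SF_HPD, SF_ConD and SC_ConD: the collagen genes' mean log2(FPKM + 1) with each gene centred on its own mean, the length trend (Spearman rho across genes), and the mean log2(FPKM + 1) of stromal and of B cell markers. The 3 libraries of highest collagen level (SF_HPD 1, SF_HPD 4 and SC_ConD 1) share a length trend of 0.48 or more, and SF_ConD 3 has that trend with a collagen level of -0.70.

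The collagen level and the length trend moved together in 3 libraries and apart in 1. The mean of the 10 genes, each centred on its own mean, was 1.99, 1.53 and 1.22 in SF_HPD 1, SF_HPD 4 and SC_ConD 1, and 0.74 in SF_HPD 3, which had a length trend of -0.24. In SF_ConD 3, with a length trend of 0.49, it was -0.70, the third lowest of the 13. Lymphoid-rich libraries stood at both ends, with 1.53 in SF_HPD 4 and -1.33 in SF_ConD 1, and without those 5 libraries all 10 fold changes in SF_HPD against SF_ConD were still positive, with a median of 1.06.

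Within the set, most genes shared 1 profile over the 13 libraries. Pearson's r between a gene's log2(FPKM + 1) and the mean of the other 9 was 0.97 for Col5a1 and Col5a2, 0.96 for Col6a1 and Col6a2, 0.95 for Col1a1 and 0.92 for Col6a3. It was lower for Col3a1 and Col1a2 (0.87 each), Col4a1 (0.84) and Col14a1 (0.65). All points share the same libraries and depths, so these are descriptions. In order of mean FPKM over all libraries the genes ran Col3a1 (44.7), Col4a1 (43.9), Col1a1 (25.7), Col1a2 (21.5), Col6a1 (16.9), Col6a2 (6.18), Col5a2 (5.41), Col6a3 (4.30), Col5a1 (3.66) and Col14a1 (2.17). This order of pooled means did not hold library by library: Col1a1 and Col14a1 changed rank often, and Col4a1 led in SF_HPD 1, SF_ConD 3 and 4 and SC_ConD 1 and 2, and Col3a1 in the other 8.

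The genes most like the collagens were sought, above a mean of 2 FPKM, in a pool of 9889 genes by Pearson's r of their log2(FPKM + 1) with the collagen mean over the 13 libraries. Pdgfra, the receptor that marks adipocyte progenitors and fibroblasts, came first (r = 0.96), at 5.51 ± 3.52 FPKM in SF_HPD, 2.17 ± 0.726 FPKM in SF_ConD and 3.65 ± 2.64 FPKM in SC_ConD (SD, n = 5, 5 and 3). Next were the extracellular sulfatase gene Sulf2 and the tenascin gene Tnxb (r = 0.94 each), then Col15a1 (0.93), Hspa12a, Mir145a and Col5a3 (0.92 each), the fibulin gene Fbln2 (0.91), Asap1 and Pdzrn3 (0.90 each). Mir145a, a small RNA gene of 70 bases in the table, was listed at 0 in each SF_ConD library and averaged 6.82 ± 8.17 FPKM in SF_HPD and 0.565 ± 0.979 FPKM in SC_ConD (SD, n = 5 and 3). Reads of an overlapping host transcript cannot be told apart from its own. Apart from Mir145a these genes are 5733 to 12209 bases long. Over the 9 libraries without the long lean, r was 0.91 for Sulf2, 0.83 for Pdgfra and 0.54 for Asap1, with the other 7 between.

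Of 34 other collagen genes, 10 passed the filter on low values, and none of these passed the test in any comparison. In SF_HPD against SF_ConD 7 of the 10 were positive (51.9% of all genes), with a median of 0.33. In SF_ConD against SC_ConD 6 were negative, with a median of -0.22. Col18a1, whose product of basement membranes releases endostatin, averaged 7.20 ± 5.85 FPKM in SF_HPD, 3.02 ± 1.02 FPKM in SF_ConD and 11.7 ± 3.55 FPKM in SC_ConD (SD, n = 5, 5 and 3). All its SF_ConD values (1.84 to 4.17) were below its SC_ConD values (8.21 to 15.3), at a log2 fold change of -1.65 (SE 0.52). Of all genes tested, 1.92% had no overlap in this direction. SC_ConD 1 was at 11.5 FPKM, and SC_ConD 2 and 3, the libraries with liver transcripts, were at 15.3 and 8.21 FPKM. The part of liver RNA in these values was not tested. Col15a1, which links basement membranes to the stroma, averaged 7.62 ± 7.58 FPKM in SF_HPD, 1.403 ± 0.483 FPKM in SF_ConD and 4.04 ± 3.33 FPKM in SC_ConD. Col5a3, the third type V chain, averaged 9.19 ± 9.85 FPKM in SF_HPD, 2.05 ± 1.56 FPKM in SF_ConD and 6.31 ± 8.19 FPKM in SC_ConD, with a listed 0 in SF_HPD 2. Col8a1, of vessel walls, went the other way with -0.47 (SE 0.57) in SF_HPD against SF_ConD, and Col4a5 stood at 0.34 (SE 0.43).

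Genes that make, process and bind collagen had list medians nearer to 0 than the collagens did in the first and second of these comparisons, and none passed the test in any of the 3 comparisons. Nothing is read from this difference in medians, because the collagens were named with their higher values on the diet known. The endoplasmic reticulum list of hydroxylation and folding (20 of 21 tested) had 15 positive fold changes in SF_HPD against SF_ConD with a median of 0.0946, and 15 negative ones in SF_ConD against SC_ConD with a median of -0.27. P4hb, the beta subunit of prolyl hydroxylase, averaged 117 ± 39.2 FPKM in SF_HPD, 99.8 ± 12.9 FPKM in SF_ConD and 153 ± 62.0 FPKM in SC_ConD. Serpinh1, the collagen chaperone HSP47, was at 0.44 (SE 0.38) in SF_HPD against SF_ConD, and Ppib, a prolyl isomerase, at 0.25 (SE 0.68).

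In the list of propeptide cleavage and crosslinking (10 of 15 tested) 8 fold changes were positive in SF_HPD against SF_ConD (median 0.43) and 8 negative in SF_ConD against SC_ConD (median -0.68). Pcolce, which enhances propeptide cleavage, averaged 11.5 ± 5.88 FPKM in SF_HPD, 5.27 ± 2.32 FPKM in SF_ConD and 6.34 ± 5.15 FPKM in SC_ConD (SD, n = 5, 5 and 3). The transglutaminase gene Tgm2 averaged 23.4 ± 12.4 FPKM in SF_HPD, 37.2 ± 14.4 FPKM in SF_ConD and 95.1 ± 37.4 FPKM in SC_ConD, with -2.08 (SE 0.51) in SF_HPD against SC_ConD. Its SF_HPD values (8.47 to 39.5) and SC_ConD values (64.8 to 137) did not overlap, which 0.853% of all genes tested shared in this direction (SF_HPD lower, 0 of the 10 collagen genes). Lox, the lysyl oxidase that crosslinks collagen, was at -0.0627 (SE 0.55) in SF_HPD against SF_ConD.

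Fibril-associated proteoglycans and adaptors (16 of 18 tested) had 14 positive fold changes in SF_HPD against SF_ConD (median 0.57) and 14 negative ones in SF_ConD against SC_ConD (median -0.74). Sparc, a collagen chaperone of the matrix, averaged 330 ± 214 FPKM in SF_HPD, 212 ± 80.7 FPKM in SF_ConD and 362 ± 122 FPKM in SC_ConD. Dpt, which promotes fibril formation, was at 0.75 (SE 0.63) in SF_HPD against SF_ConD, and decorin Dcn at 0.55 (SE 0.48). Proteases and inhibitors of collagen turnover (15 of 18 tested) were split 8 to 7 in SF_HPD against SF_ConD, with 0.38 (SE 0.30) for the inhibitor Timp2, 0.40 (SE 0.55) for the gelatinase Mmp2 and -0.13 (SE 0.67) for cathepsin K (Ctsk). In SF_ConD against SC_ConD 11 of the 15 were negative. Receptors (7 of 10 tested) had a median of 0.19 in SF_HPD against SF_ConD, among them integrin beta-1 Itgb1 (0.19, SE 0.47), Adgrg1 (-0.10, SE 0.76) and Ddr1 (-0.0318, SE 0.59).

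TGF-beta is the best-known inducer of collagen genes in fibroblasts. Of its 23 ligand, receptor, latency and target genes 22 were tested, with 14 positive in SF_HPD against SF_ConD (median 0.19) and 12 negative in SF_ConD against SC_ConD (median -0.0528). The endothelial co-receptor Eng was at -0.17 (SE 0.64), the latency protein Ltbp3 at 0.25 (SE 0.66) and the receptor Tgfbr2 at -0.16 (SE 0.43) in SF_HPD against SF_ConD. In SF_HPD against SC_ConD the medians of the 7 lists lay between -0.33 for crosslinking and 0.17 for receptors.

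**Figure D5:**
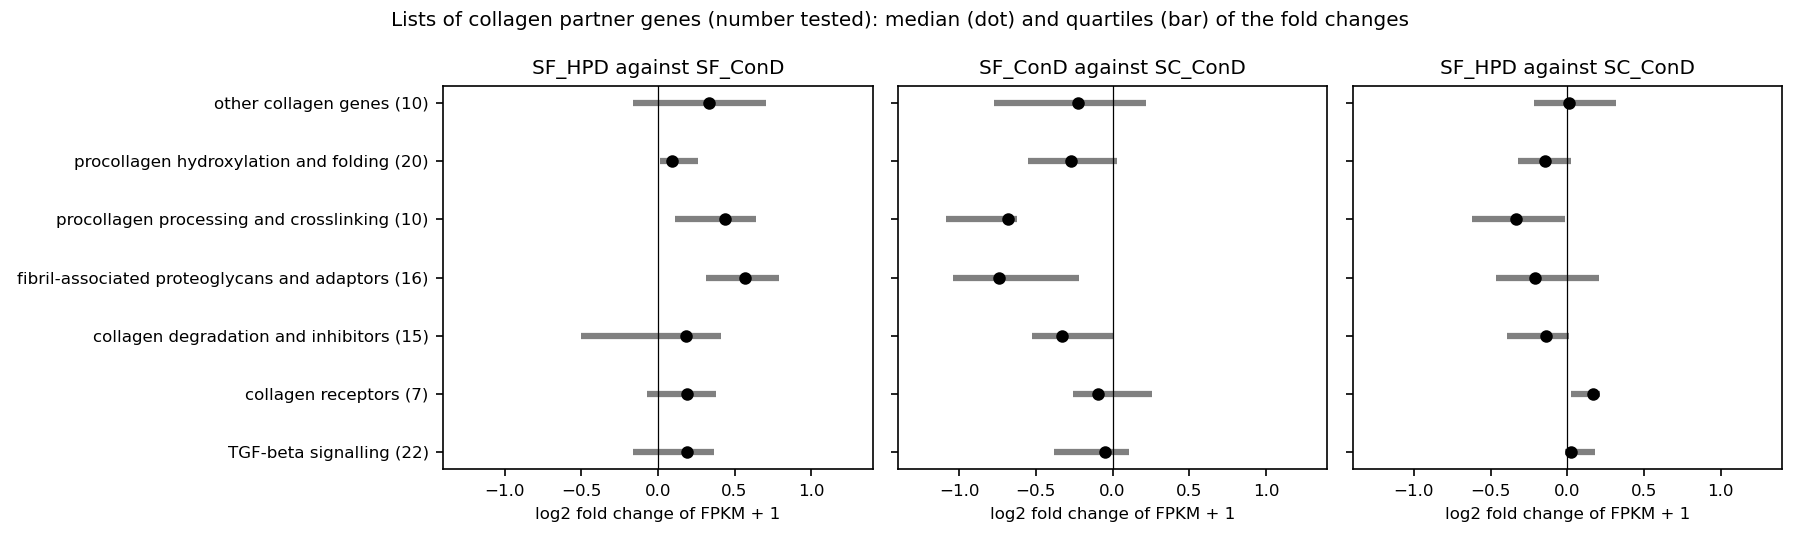
Median (dot) and quartiles (bar) of the log2 fold changes of FPKM + 1 in 7 lists of collagen partner genes, with the number tested in brackets, in SF_HPD against SF_ConD, SF_ConD against SC_ConD and SF_HPD against SC_ConD. The fibril-associated list has the highest median in the first comparison (0.57) and the lowest in the second (-0.74), both smaller in size than the collagen genes' own medians of 1.32 and -0.95. The collagen genes were named with their values known, so the difference in size is not read as a result.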

How the data were processed

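The authors deposited FPKM per gene for 13 libraries. CASAVA, HISAT2 2.0.5, featureCounts 1.5.0-p3 and the build mm8 are named per the submitters' processing notes. All 10 collagen genes have the start and end of the GRCm38 annotation (GENCODE M21), as do 53499 of the 54532 genes, so coordinates are given on GRCm38. The strand setting is not known here. The collagen genes, the lists and the rule for named genes (of each partner list the 3 of highest mean FPKM, of the other collagens 6) were chosen with earlier results of these data known.

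Values of log2(FPKM + 1) were fitted to group means by limma 3.58.1 (R 4.3.3, trend and robust, two-sided), over the 13 libraries. The 14421 genes that reached an FPKM of 1 in 3 or more libraries were adjusted together by Benjamini-Hochberg at 0.05. Fold changes are on this scale, which understates changes of low genes. FPKM times gene length gave whole reads (tolerance 0.05) for 100% of values, and these gave the depths. The total implied by the FPKM was 0.479 to 1.23 times a library's own recovered total. The fit was also run on simulated reads with known changes, drawn from a profile common to all libraries. These reads held no length trend and no mixture of tissues, so that run does not bear on such differences between libraries. No 2 libraries of a group were alike within sampling noise (lowest chi-square per degree of freedom 96.5).

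Same-numbered libraries of SF_HPD and SC_ConD deviated from their group means with correlations of 0.711, 0.333 and 0.191 across genes, each over 0.1. These numbers were therefore tried as a block in an alternative fit, although the labels give no source for a pairing. The main fit, which gave the fold changes and SE, used no block. In the other comparisons at least 1 correlation was below 0. Alternatives were a pseudocount of 0.1, other filters and scalings, limma-voom, the replicate block, covariates, and leaving out libraries.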

Additional observations from a re-analysis of the deposited data

Results flagged for a closer look

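No collagen gene had a library standing apart from the other 4 of its group by Dixon's gap test on log2(FPKM + 1). Among 34 genes in groups of 5 libraries (68 groups of values, where chance flags about 1 in 20) this test picked out 3 values of partner genes. Dcn was at 215 FPKM in SF_HPD 3, against 92.8 to 98.8 FPKM in the other 4 SF_HPD libraries. Col4a5 was at 3.01 FPKM in SF_ConD 3, against 0.364 to 0.795 FPKM in the other 4 SF_ConD libraries. Timp2 was at 24.1 FPKM in SF_ConD 2, against 36.3 to 40.2 FPKM in the other 4.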

How the results depend on the processing

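In SF_HPD against SF_ConD the median collagen fold change stayed positive in all 27 alternatives, from 1.03 to 1.71 with single libraries left out and from 0.59 (without the 4 long-lean libraries) to 1.63 (pseudocount 0.1) otherwise. In SF_ConD against SC_ConD it stayed negative in all 27, from -1.25 to -0.35 with single libraries left out, and reached -1.94 without SC_ConD 2 and 3. In SF_HPD against SC_ConD it ran from 0.11 to 1.06 with single libraries left out and was -0.72 without SC_ConD 2 and 3, the 1 setting of opposite sign. Some of the 27 could not move a median: leaving out libraries of the third group, dropping the filter on low values, and fitting without trend and robust. The replicate block could not move that of SF_HPD against SF_ConD. Such settings say nothing on how steady a median is, and the genes were chosen with their values known. With the replicate block the medians were 1.32, -0.87 and 0.55 and 0 genes were called in each comparison, so the block changed no call. With the length trend as a covariate they were 1.17, -0.83 and 0.46. Leaving out single libraries gave 0 to 1, 0 to 194 and 0 to 196 called genes in the 3 comparisons, where 194 and 196 arose without SC_ConD 1 and the 1 in SF_HPD against SF_ConD and in SF_HPD against SC_ConD without SF_HPD 5. Without the 4 long-lean libraries, 162 genes were called in SF_ConD against SC_ConD and 172 in SF_HPD against SC_ConD. Of these, 157 and 169 were lower in the fragmented-sleep group. This setting and the one without SC_ConD 1 left SC_ConD 2 and 3, the libraries with liver transcripts, as the only SC_ConD libraries. The cause of the calls was not tested. TPM rescaling moved the median of all genes to 0.15 in SF_ConD against SC_ConD and 0.25 in SF_HPD against SC_ConD, where the collagen medians were -0.78 and 0.79. With the library's own recovered total as divisor these were 0.16 and 0.13, with collagen medians of -0.70 and 0.63, and with limma-voom 0.27 and 0.16, with -0.78 and 0.75. In SF_HPD against SF_ConD limma-voom moved the median of all genes to -0.14, with a collagen median of 1.56. Depth limits the low values most, as for Col6a3 in SC_ConD 3 (28 reads).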
